A study of Mus musculus with 6 samples.

Results

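The S100 genes encode small calcium-binding proteins, and 10 of them were taken by name from a single list fixed by symbol: S100g, S100a1, S100a4, S100a6, S100a8, S100a9, S100a10, S100a11, S100a13 and S100a16. Of these, 7 have a value among the 10245 genes of the deposited table, and S100a4, S100a8 and S100a9 were not analysed here. RNA-seq was performed on whole pancreas from 3 control mice, of genotype Ptf1a(CreER/+), and from 3 Ptf1a cKO mice, of genotype Ptf1a(CreER/fl), so that the transcription factor Ptf1a, which keeps acinar cells making digestive enzymes, could be removed in the adult. Both groups received tamoxifen (TM) at 0.25 mg/g, from a 50 mg/ml solution in corn oil given by gavage on 3 days, and pancreata were taken on day 14. The inducible Cre is read from the Ptf1a locus itself and therefore acts in acinar cells, and its insertion leaves no working Ptf1a on that allele, so the controls carry a single functional copy. The study's methods also give both groups an EYFP reporter of Cre activity. Control mice were 4 months old (1 male, 2 females) and cKO mice 5 months old (1 male, 2 females), and the effect of this age difference cannot be told apart from that of genotype. Each library is from 1 mouse.

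S100 proteins are built around a pair of EF-hand loops that hold calcium. Most act as dimers that change shape when calcium binds and then grip a partner such as an annexin, and several also leave the cell and act on surface receptors. S100g, also called calbindin-D9k, is different in that it buffers and carries calcium rather than switching partners, and it is best known from the absorptive cells of the small intestine, where vitamin D raises it.

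Values are normalized read counts as the authors scaled them. Ptf1a itself stood at 566, 601 and 652 in the control libraries and at 19.8, 70.1 and 10.2 in the cKO libraries (log2 change -4.41, adjusted p = 3.29e-04), so the label of every library matched its level of the deleted gene. Of all genes, 17.1% were called higher in the cKO and 16.8% lower, where called means an adjusted p-value under 0.05 from limma with Benjamini-Hochberg adjustment over all 10245 genes. This balance depends on the scaling, because acinar markers held 70.4% to 75.2% of the gene total in control libraries and 32.0% to 55.6% in cKO libraries: with every library brought to the same total, 9587 genes were called higher and 129 lower, and with the same total counted without acinar markers 5098 and 697. Fewer cells of a type and less RNA per cell cannot be told apart in bulk tissue. All 13 fibroblast and stellate cell markers and 12 of 13 leukocyte markers had values, and 12 and 10 of them were called higher, while 6 of 8 gastric markers and 7 of 11 ductal markers were called higher as well. None of the 13 neutrophil markers was among the genes analysed.

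Of the 7 S100 genes, 6 were called higher in Ptf1a cKO pancreas (S100g, S100a1, S100a6, S100a10, S100a11 and S100a13) and none was called lower, against the 17.1% of all genes called higher. S100a16 ran the other way and narrowly missed the threshold. Every gene of the table reaches at least 27.6 normalized counts in some library, and S100g and S100a11 do so in cKO libraries alone. Only a higher value there could bring them into the table, so they are counted among the 6 but their calls add no support. Of the other 5 genes, 4 were called higher. In each of the 7 genes, the control and cKO libraries did not overlap: 6 had every cKO library above every control library, as had 26.5% of all genes, and S100a16 had every cKO library below, as had 24.3%. The median log2 change of the 7 was 0.92, beside 0.04 over all genes, whose quartiles were -0.28 and 0.39. This median and the 6 with every cKO library above include S100g and S100a11, which raise both and are no support for either. The other 5 had log2 changes of 0.74 (S100a1), 0.72 (S100a6), 0.99 (S100a10), 0.92 (S100a13) and -0.41 (S100a16), of which that of S100a1 is the middle value. An exact permutation test of 3 against 3 libraries gave p = 0.1 for each of the 7, which is the smallest two-sided value this design allows.

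The letters just upstream of 3 of these genes, and between another pair, are shown because they belong to the gene that appeared from 0 in the cKO (S100g), to the gene with the largest log2 change among the others (S100a11), to the gene that ran opposite (S100a16) and to a pair that start back to back and were both higher (S100a1 and S100a13). The sequences are from RefSeq on GRCm38.p6, a newer build than the mm9 named for the reads, and genes were matched by symbol: 9 of the 10 have an entry. Each is written 5′ to 3′ on the gene's own strand and ends at the base before the RefSeq start of transcription, and capitals mark every match, on either strand, to any of the 8 motifs named after the sequences (in S100a11 the first capitals are 2 adjoining matches). S100g is read from the minus strand at chrX:162964600-162964849, S100a11 from the plus strand at chr3:93520246-93520495, and S100a16 from the plus strand at chr3:90537004-90537253. The stretch between S100a1 (minus strand) and S100a13 (plus strand), chr3:90514331-90514434, is 104 bases long between the RefSeq starts and is written on the plus strand. Gene positions elsewhere in the text are from GENCODE, whose starts differ for some of these genes: 62 of the 104 bases lie inside S100a1 as GENCODE places it, which leaves a gap of 42 bases, and the last 8 bases of the S100a11 window lie inside S100a11.
S100g: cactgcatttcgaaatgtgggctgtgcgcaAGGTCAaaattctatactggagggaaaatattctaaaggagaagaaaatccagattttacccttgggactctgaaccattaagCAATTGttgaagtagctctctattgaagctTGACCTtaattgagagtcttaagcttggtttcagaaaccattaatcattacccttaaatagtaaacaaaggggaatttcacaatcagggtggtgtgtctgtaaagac
S100a11: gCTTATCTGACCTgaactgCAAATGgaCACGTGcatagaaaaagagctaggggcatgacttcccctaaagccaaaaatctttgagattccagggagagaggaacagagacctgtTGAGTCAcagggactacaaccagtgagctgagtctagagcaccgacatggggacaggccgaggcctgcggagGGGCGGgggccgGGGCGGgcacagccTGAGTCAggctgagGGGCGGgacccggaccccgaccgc
S100a16: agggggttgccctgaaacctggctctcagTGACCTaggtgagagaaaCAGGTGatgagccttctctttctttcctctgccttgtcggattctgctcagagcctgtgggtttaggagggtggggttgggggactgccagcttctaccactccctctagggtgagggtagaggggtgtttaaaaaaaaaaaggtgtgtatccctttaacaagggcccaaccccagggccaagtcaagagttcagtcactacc
S100a1-S100a13: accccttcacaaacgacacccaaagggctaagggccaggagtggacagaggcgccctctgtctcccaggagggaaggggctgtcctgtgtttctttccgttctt

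In these windows of 250 bases, AGGTCA, the half-site read by many nuclear receptors, was found 2 times upstream of S100g, 1 time upstream of S100a16 and 1 time upstream of S100a11, and 14% of 32851 RefSeq promoters hold it. The E-box CANNTG was found 1 time in S100g, 1 time in S100a16 and 2 times in S100a11, and 66.2% of promoters hold it. In the S100a11 window, TGANTCA, the letters bound by AP-1, occurred 2 times, GGGCGG, those bound by Sp1, 3 times and GATAAG, those bound by GATA factors, 1 time, and 6.75%, 32.7% and 6.55% of promoters hold them. None of these 3 was found upstream of S100g or S100a16. TATAAA of the TATA box, TGGGAA of the Notch effector RBPJ and TTTATNG of CDX factors were found in none of the 3 windows, and 12.4%, 21.6% and 9.81% of promoters hold them. No match to any of the 8 motifs was found in the 104 bases between S100a1 and S100a13. Both strands were searched, TATAAA and TTTATNG can share letters, and a match says only that the letters are there.

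S100g was listed at 0 in all 3 control libraries and stood at 33.8, 169 and 117 in the cKO libraries, a mean of 106 ± 68.2 (SD, n = 3). All 3 cKO mice therefore had S100g, with cKO replicate 1 well under the other two. The difference in means was 106 normalized counts (adjusted p = 5.26e-04, limma with Benjamini-Hochberg adjustment), and no fold is given against a group at 0. Each control library lists 2 genes at 0, so S100g was among the few genes without any value there. Since S100g is in the table through its cKO values alone, this p describes the size of the difference next to the spread and is no independent support for it.

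**Figure D1:**
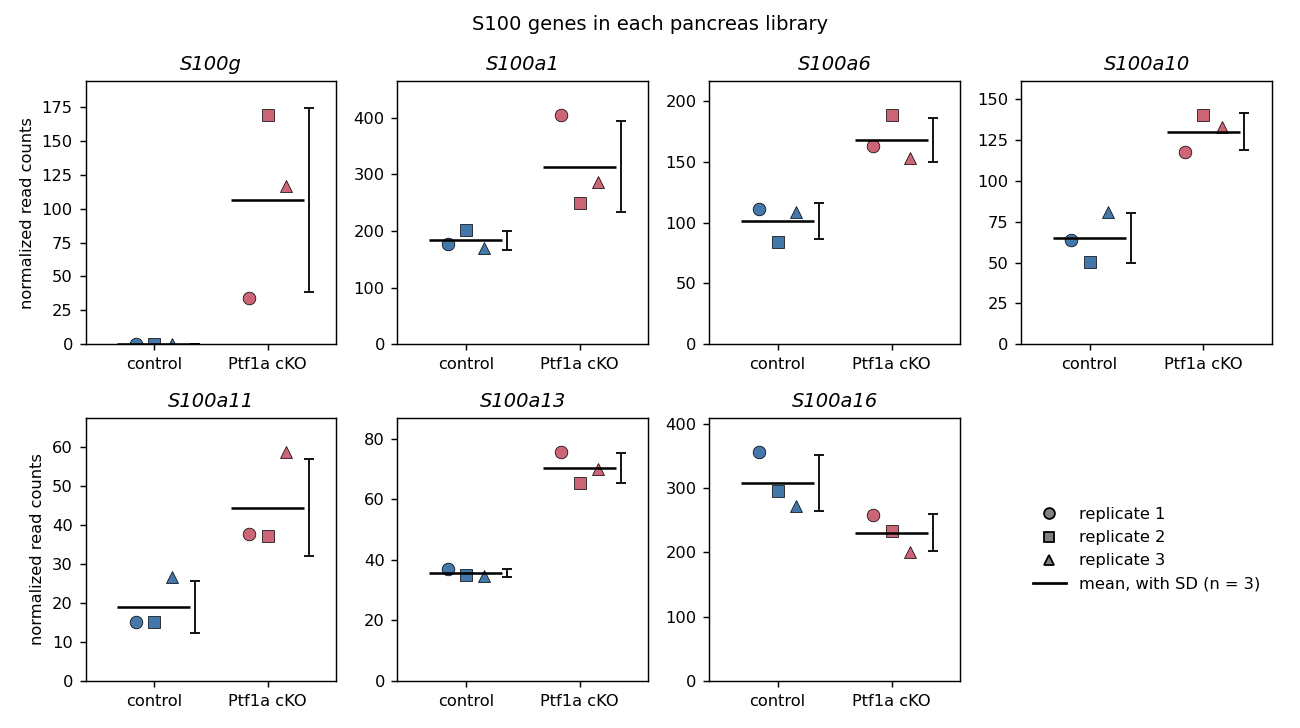
Normalized read counts of the 7 S100 genes, one panel per gene, with a linear y axis from 0 and the control and Ptf1a cKO groups on the x axis; points are single mice, the shape gives the replicate number, the line is the mean and the bar is the SD (n = 3). S100g lies at 0 in all 3 control libraries, S100a1, S100a6, S100a10, S100a11 and S100a13 are higher in every cKO library than in any control library, and S100a16 is lower in every cKO library.

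S100g (ENSMUSG00000040808.4) spans chrX:162961992-162964599 on the minus strand of GRCm38 and lies wholly inside Ctps2, a gene for the enzyme that makes CTP, which runs over chrX:162901238-163032508 on the plus strand. The 3 exons of S100g cover 480 bases, and 0 of these fall in exons of Ctps2, so spliced Ctps2 reads would not be counted for S100g, whereas reads from unspliced Ctps2 could be if strand was ignored. Ctps2 had values of 137, 157 and 129.7 in control libraries and 261, 220.1 and 241 in cKO libraries, a log2 change of 0.76 (SE 0.12, adjusted p = 0.00203). S100g was listed at 0 in every control library, where Ctps2 had values. The part of unspliced Ctps2 reads in the S100g values was not tested.

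S100g belongs in textbooks to intestinal calcium uptake. Of 17 genes for vitamin D signaling and epithelial calcium transport, 8 had values, of which 1 was called higher, 2 were called lower and 5 were not called, with a median log2 change of -0.02. These shares are near the 17.1% and 16.8% of all genes. Trpv6, the channel through which calcium enters absorptive cells, fell from 83.6, 101 and 107 in control to 36.6, 21.3 and 25.9 in cKO libraries, a log2 change of -1.71 (SE 0.21, adjusted p = 5.31e-04). With libraries at the same total it was -0.31 and not called (adjusted p = 0.376), where the median log2 change of all genes was 1.48. The groups did not overlap, and in the cKO the library with the most S100g had the least Trpv6. Vdr, the vitamin D receptor, stood at 25.6, 22.4 and 43.8 in control and 31.4, 13.2 and 52.4 in cKO libraries (log2 change -0.04, SE 0.44, adjusted p = 0.948). Its groups overlapped throughout, and the library with the most S100g also had the lowest Vdr.

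Rxra, the partner with which the vitamin D receptor binds DNA, had a log2 change of -0.56 (adjusted p = 0.00589). With libraries at the same total it was 0.93 (adjusted p = 5.79e-04), under the median of 1.48 over all genes at that scaling. Slc8a1, a sodium/calcium exchanger, was higher, at 45.8 ± 5.50 in control and 98.7 ± 25.5 in cKO libraries (log2 change 1.03, adjusted p = 0.00418). Atp2b1, a plasma membrane calcium pump, had a log2 change of 0.40 and was not called (adjusted p = 0.143), and Rxrb was not called either. Calb1, the larger calbindin, and Cyp24a1, the classical vitamin D target, were not analysed here.

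Markers of the small-intestinal absorptive cell were mostly without values: 3 of 16 could be analysed and 1, Anpep, was called higher, from 1646 ± 204 to 7834 ± 675, while Fabp1, Fabp2, Apoa1, Apoa4, Alpi, Lct and Sis were not among the genes analysed. The summed level of the 3 was 1441 to 1813 in control libraries and 7772, 8599 and 7330 in cKO replicates 1, 2 and 3. It was thus highest in the cKO mouse with the most S100g. The acinar sum, at 2986000, 4995000 and 1768000 in cKO replicates 1, 2 and 3, was also highest in that mouse. The summed level of the fibroblast and stellate markers was 3384 to 3970 in control libraries and 6530, 11740 and 8891 in the cKO libraries, which is the same order over the cKO mice as S100g. The ductal sum was 94870, 28590 and 112300, the gastric sum 567400, 213100 and 457600 and the leukocyte sum 4873, 2207 and 5575 in cKO replicates 1, 2 and 3, and in each of these the cKO mouse with the most S100g had the least. The part of these markers in the S100g result was not tested.

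The 8 genes whose log2 values followed S100g most closely over the 6 libraries were Fam102b (r = 0.996), Tpm3 (0.993), Ddr1 (0.993), Pvrl4 (0.992), Hspa4l (0.992), B230120H23Rik (0.992), 9430015G10Rik (0.991) and Ephx1 (0.990). All 8 were called higher in the cKO, and all 6 points come from libraries that also differ by group, so these values describe the order of libraries and nothing more. Unlike S100g, each had values in control libraries. Ephx1, an epoxide hydrolase, went from 154 ± 6.73 to 467 ± 61.2, and Tpm3, a tropomyosin, from 33.1 ± 3.82 to 152 ± 50.3.

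The remaining 6 S100 genes lie in the S100 cluster of chromosome 3, between the start of S100a1 and the end of S100a10 (chr3:90511034-93564643, GRCm38). This span holds 75 protein-coding genes in the GENCODE annotation, 9 of which are S100 genes on the list, and no gene of the span other than the 6 S100 genes was among those analysed. The nearest analysed genes upstream, in order towards the cluster, were Npr1 (log2 change 0.75, adjusted p = 0.0151), Ilf2 (0.12, adjusted p = 0.519), Snapin (0.38, adjusted p = 0.0480) and Chtop (0.01, adjusted p = 0.954). Genes on this side of the cluster therefore included both called and uncalled ones, beside 17.1% of all genes called higher.

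S100a1 and S100a13 are neighbours that start back to back. S100a1 (ENSMUSG00000044080.9, chr3:90511034-90514392, minus strand) is best known from heart and skeletal muscle, where it tunes the calcium release and reuptake of the sarcoplasmic reticulum. Its values were 177, 202 and 170.1 in control and 404, 249.6 and 287 in cKO libraries, means of 183 ± 16.9 and 314 ± 80.6. Every cKO mouse was above every control mouse, with cKO replicate 1 the highest. The log2 change was 0.74 (SE 0.18, adjusted p = 0.0117, limma).

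S100a13 (ENSMUSG00000042312.9, chr3:90514435-90524581, plus strand) helps FGF1 and interleukin-1 alpha leave the cell without a signal peptide. It stood at 37.0, 35.0 and 34.6 in control and 75.6, 65.4 and 69.8 in cKO libraries, means of 35.5 ± 1.31 and 70.3 ± 5.09. The spread within each group was small next to the difference, and the cKO mean was 1.98 times that of control. The log2 change was 0.92 (SE 0.16, adjusted p = 0.00247). The ratio of S100a1 to S100a13 within a library, which does not depend on scaling, was 5.17 ± 0.54 in control and 4.42 ± 0.81 in cKO libraries (exact permutation p = 0.3), so no change in the balance of this pair was detectable with 3 mice a group.

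S100a6, S100a10 and S100a11 are the members that work with annexins at membranes. S100a6 (calcyclin, ENSMUSG00000001025.8, chr3:90612882-90624181, plus strand) is induced in growing cells. Its values were 111, 84.2 and 109 in control and 163, 188 and 153 in cKO libraries, means of 101.3 ± 14.9 and 168 ± 17.96. All cKO mice were above all control mice, and the log2 change was 0.72 (SE 0.15, adjusted p = 0.00572).

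S100a10 (ENSMUSG00000041959.14, chr3:93555080-93564643, plus strand) has lost the ability to bind calcium and forms a tetramer with annexin A2 that holds plasminogen at the cell surface. It stood at 63.7, 50.4 and 80.8 in control and 118, 140.1 and 133 in cKO libraries, means of 64.9 ± 15.2 and 130.2 ± 11.5. The lowest cKO library lay clear of the highest control library. The log2 change was 0.99 (SE 0.18, adjusted p = 0.00302).

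Its partner Anxa2 had values of 151, 119 and 213 in control and 200.5, 221 and 284 in cKO libraries, a log2 change of 0.56 that was not called (SE 0.21, adjusted p = 0.0668), and its groups overlapped. S100a10 per unit of Anxa2 was 0.423, 0.423 and 0.380 in control and 0.587, 0.635 and 0.468 in cKO libraries. Every cKO library had more S100a10 for its Anxa2 than any control library (exact permutation p = 0.1, the smallest possible).

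S100a11 (ENSMUSG00000027907.4, chr3:93520488-93526287, plus strand) binds annexin A1 in a calcium-dependent way and is found at membranes under repair. It had the lowest values of the 7 in control libraries apart from S100g, at 15.2, 15.3 and 26.7, and stood at 37.7, 37.1 and 58.8 in cKO libraries, means of 19.05 ± 6.64 and 44.5 ± 12.35. In each group replicate 3 was well above the other two. Its control values are all under the 27.6 that every gene of the table reaches somewhere, so it too is in the table through its cKO values. The log2 change was 1.10 (SE 0.30, adjusted p = 0.0208), and the call rested on single libraries: the adjusted p was 0.0694 without control replicate 1, 0.0684 without control replicate 2 and 0.0713 without cKO replicate 3. Per unit of Anxa1, S100a11 was 0.259 ± 0.144 in control and 0.338 ± 0.0876 in cKO libraries (exact permutation p = 0.5), a difference within the spread between mice.

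S100a16 (ENSMUSG00000074457.10, chr3:90537254-90543151, plus strand) is a widely expressed member that binds calcium weakly. Its values were 356, 296 and 273 in control and 258, 233 and 201 in cKO libraries, means of 308 ± 43.1 and 231 ± 28.55, so the cKO stood at 74.8% of control. No cKO library reached the lowest control library, but the gap between the groups was small next to the spread inside them. The log2 change was -0.41 (SE 0.14) with an adjusted p of 0.0501, which is not called. The scaling decides its direction: with every library at the same total the log2 change was 1.07 (adjusted p = 1.22e-04), and with the same total outside the acinar markers it was -0.00079 (adjusted p = 0.997). The median log2 change of all genes was 1.48 in the first of these scalings and 0.44 in the second.

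Ratios to S100a16 within a library are free of the scaling. S100a1 per unit of S100a16 was 0.498, 0.684 and 0.624 in control and 1.57, 1.07 and 1.43 in cKO libraries, so that S100a16 was the more abundant by count in every control mouse and S100a1 in every cKO mouse. The same ratio went from 0.331 ± 0.0595 to 0.734 ± 0.0918 for S100a6, from 0.215 ± 0.0703 to 0.573 ± 0.105 for S100a10, from 0.0640 ± 0.0297 to 0.199 ± 0.0810 for S100a11 and from 0.116 ± 0.0115 to 0.307 ± 0.0355 for S100a13. In all 5 the groups did not overlap (exact permutation p = 0.1 for each, the smallest possible). This follows from the single genes, since each of the 5 was above control and S100a16 below it in every cKO library. The separation and its p are therefore no further support. These ratios show unequal change among the 6 genes, not which of them changed.

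**Figure D2:**
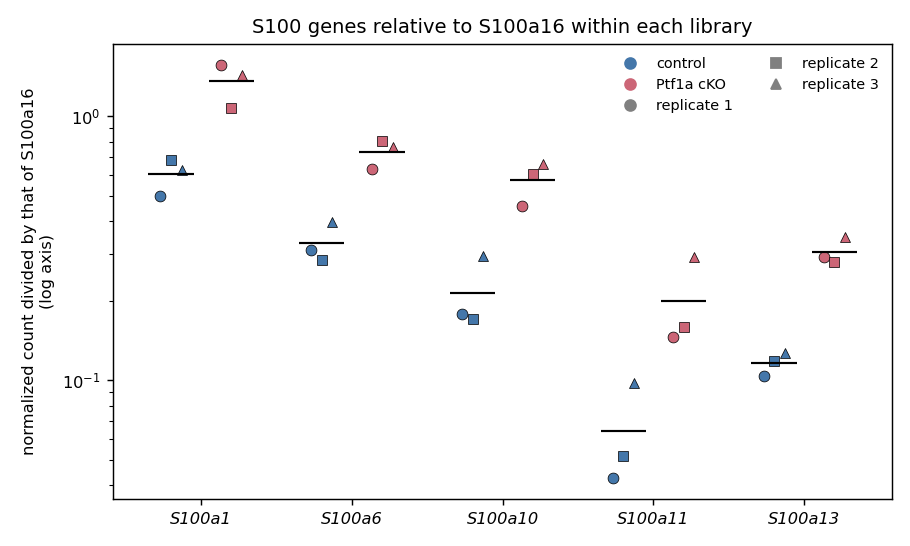
Normalized read count of 5 S100 genes divided by that of S100a16 in the same library, on a log y axis with no unit, with the genes on the x axis; blue points are control and red points Ptf1a cKO mice, the shape gives the replicate number and the line is the mean (n = 3). For each of the 5 genes all cKO mice lie above all control mice, and for S100a1 the cKO points are above 1 (1.07 to 1.57) while the control points are below it (0.498 to 0.684).

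Levels of different genes were set side by side per kilobase of the principal transcript. In control pancreas, S100a16 stood at 273.6 normalized counts per kilobase (range 242 to 316) and S100a1 at 271 (251 to 299), and these neighbours in the order did not differ beyond their spread. Divided by the length of all annotated exons instead, S100a1 came to 264 and S100a16 to 190.7 in control. S100a6 followed, per principal transcript, at 138.5 (115 to 152) and S100a10 at 94.8 (73.6 to 118), whose ranges overlap. S100a13 at 49.7 (48.3 to 51.8) and S100a11 at 37.3 (29.7 to 52.3) also overlapped, and S100g was at 0. In the cKO, S100a1 led at 463 per kilobase (369 to 597), clear of S100a6 at 230.0 (209.9 to 257). S100g came to 222 per kilobase with a wide range (70.4 to 352), which overlaps those of S100a16 at 205 (178 to 229) and S100a10 at 190.1 (172 to 205). S100a13 at 98.3 (91.5 to 106) and S100a11 at 87.1 (72.6 to 115) were the lowest. The order below S100a1 depends on the length used: per kilobase of all annotated exons, the cKO means were 452 for S100a1, 222 for S100g, 143 for S100a16, 123 for S100a6 and 107 for S100a10. The summed normalized counts of the 7 genes were 712 ± 41.9 in control and 1064 ± 38.7 in cKO libraries.

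Across the 6 libraries, the 15 pairs among S100g, S100a1, S100a6, S100a10, S100a11 and S100a13 had Pearson's r of 0.68 to 0.96 on the log2 scale. The 6 pairs with S100a16 had r of -0.94 to -0.57. The libraries share their group difference and their scaling, so these values describe the same split of control and cKO mice that the single genes show.

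Genes whose products the S100 proteins bind inside the cell are given by the same call. Of 20 such partners, 16 had values, 4 were called higher, none lower and 12 were not called, with a median log2 change of 0.29, beside 17.1% higher and 16.8% lower over all genes, so nothing particular to the partners is read from the count. Anxa1, the partner of S100a11, went from 78.9 ± 14.7 to 132 ± 9.74 (log2 change 0.73, adjusted p = 0.00751). Iqgap1, a scaffold at the cell cortex, had a log2 change of 0.72 (adjusted p = 0.00351), Ahnak, a giant protein held by the complex of S100a10 and annexin A2, one of 0.69 (adjusted p = 0.00643) and Sugt1 one of 0.41 (adjusted p = 0.0339). Myh9, a non-muscle myosin heavy chain, at 0.45 (adjusted p = 0.0640), Anxa11 at 0.17, Cacybp at -0.03 and Atp2a2, the calcium pump that S100a1 tunes, at -0.08 were not called. Fgf1, exported with S100a13, had a log2 change of 0.25 and was not called.

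Of 8 receptors and co-receptors for secreted S100 proteins, 5 had values, 1 was called higher and none lower. Over all genes 17.1% were called higher and 16.8% lower, so nothing particular to the receptors is read from the count. Cd14, a co-receptor found on macrophages, stood at 12.8, 17.3 and 12.1 in control and 59.1, 39.8 and 53.3 in cKO libraries, a log2 change of 1.63 (SE 0.27, adjusted p = 0.00211). Its groups did not overlap, and both Cd14 and the leukocyte marker sum were lowest in replicate 2 of the cKO mice. Cd36 at 0.73 (adjusted p = 0.0830), Myd88 at 0.41 (adjusted p = 0.0732), Mcam at 0.12 and Bsg at -0.03 were not called. Ager, Tlr4 and Ly96 were not analysed here.

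**Figure D3:**
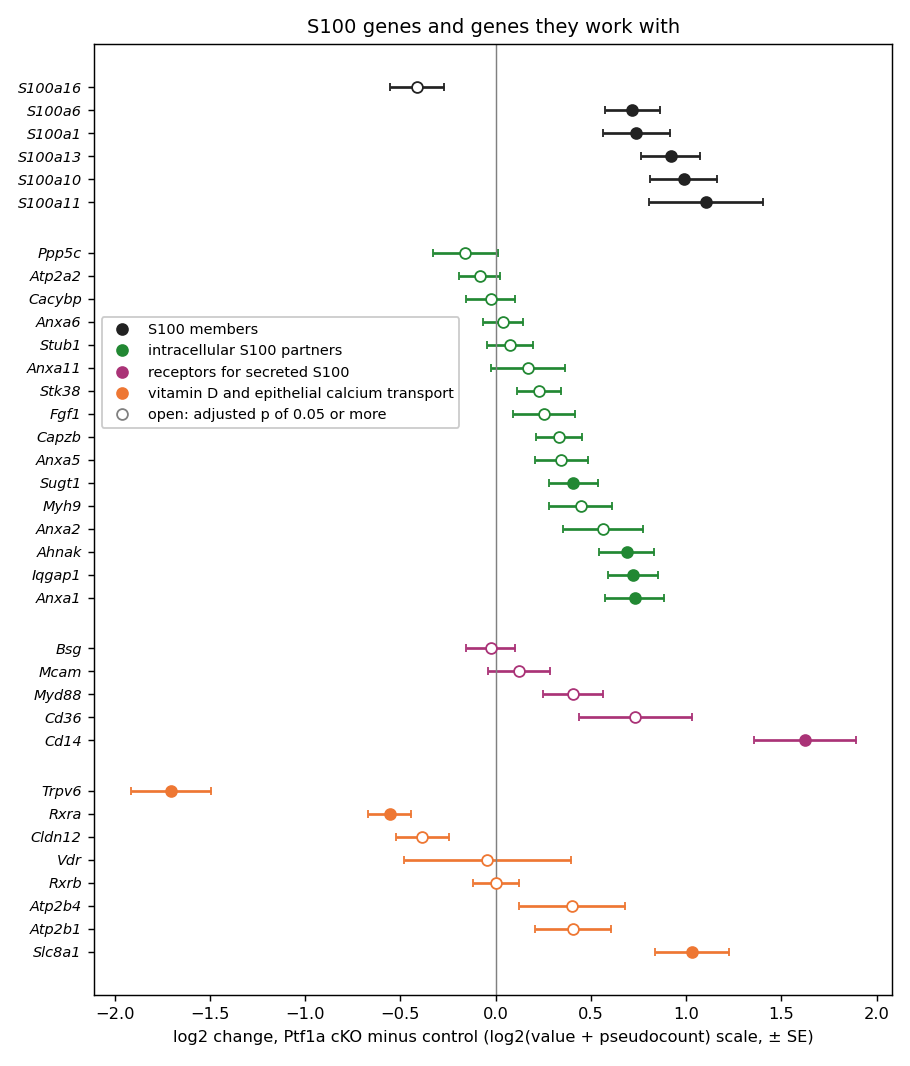
Log2 changes (Ptf1a cKO minus control, on the log2 scale of scaled value plus pseudocount) with their standard errors for the 6 S100 genes with values in both groups and for 3 lists of related genes, with the log2 change on the x axis and genes on the y axis; filled points are called by limma (adjusted p under 0.05). S100a11 lies furthest right among the S100 genes at 1.10 and S100a16 is the open point to the left of 0 at -0.41, while Trpv6 at -1.71 and Cd14 at 1.63 are the extremes of the lists.

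S100a6, S100a10 and S100a11 are also expressed by fibroblasts and macrophages, and markers of those cells were higher beside them. Vim, of the fibroblast and stellate list, went from 271 ± 53.6 to 643 ± 105, and Col1a1 from 243 ± 36.2 to 1012 ± 418. The leukocyte sum went from a range of 939 to 1708 in control to 2207 to 5575 in cKO libraries. None of 10 endocrine and 1 of 8 endothelial markers was called. The part of these cells in the S100 changes was not tested.

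Leaving out any single library kept S100g called higher, which is no independent support for a gene in the table through its cKO values alone. It also kept S100a1, S100a6, S100a10 and S100a13 called higher. The log2 change of S100a1 moved most among these 4 with values in both groups, between 0.54 and 0.89, with an adjusted p of up to 0.0454. That of S100a13 stayed between 0.87 and 0.97.

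**Figure D4:**
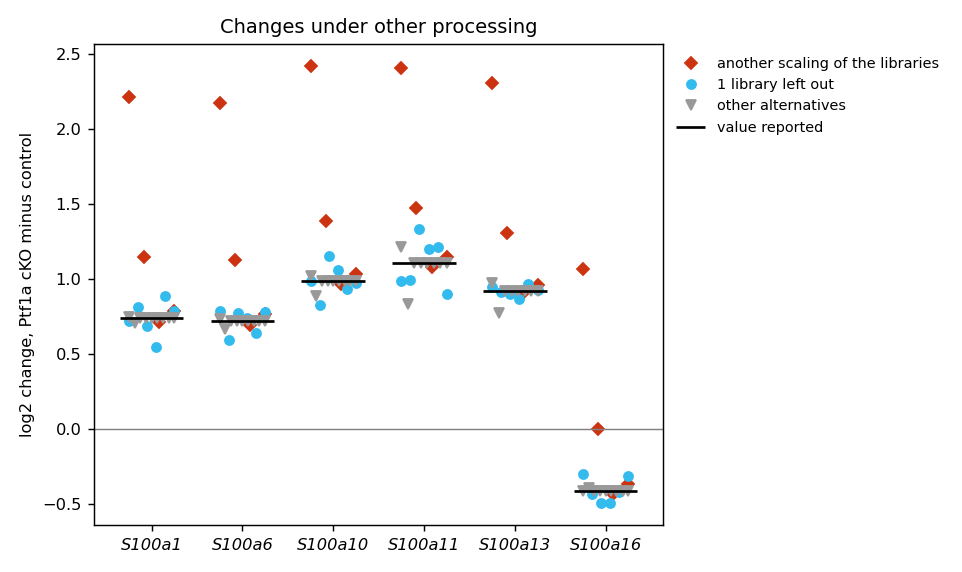
Log2 change (Ptf1a cKO minus control) on the y axis for the 6 S100 genes with values in both groups, under every alternative in which it was tested; diamonds are other scalings, circles leave out 1 library, triangles are other alternatives and the black line is the value reported. S100a16 moves from -0.41 to 1.07 when libraries are brought to the same total, while the other 5 genes lie above 0 throughout.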

How the data were processed

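RNA-seq libraries from whole pancreas of 3 control and 3 Ptf1a cKO mice were grouped by their labels. The authors deposited 1 table of a signal per gene and library, namely normalized read counts that they had scaled across libraries. The submitters' processing notes name TopHat2 2.0.4, Bowtie 0.12.7.0, SAMtools 0.1.18.0, HTSeq 0.6.0 and mm9. In the study's methods the authors used edgeR with TMM normalization. The annotation, and whether counting used strand, are not given in the sources used here. At most 2.13% of values were whole multiples of a common step (tolerance 0.01), so read counts could not be recovered and no count model was run. The study's methods do give the uniquely aligned reads of each library. The 10245 genes each reach at least 27.6 normalized counts in some library. A further 3 entries that name no gene held 75.7% to 82.6% of a library's normalized counts and were left out. Gene totals were 5527100 to 21175800, and gene medians 125 to 128.5.

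Values were divided by 13.639, a single factor, and log2(value + 0.25) was fitted with limma 3.58.1 (R 4.3.3), in which eBayes followed lmFit, the variance prior was allowed to follow mean expression and the model held group alone. A minimum mean of 0.25 removed 0 genes. P-values are two-sided and Benjamini-Hochberg adjusted over all genes, and fold changes on this scale understate those of low genes. The fit was tested on simulated data. Exact permutation tests, ratios, motifs and figures used Python 3.11.15, pandas 2.3.3, scipy 1.17.1 and matplotlib 3.10.9. Positions are from GRCm38 annotation matched by symbol.

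The S100 genes and all lists (partners, receptors, vitamin D and calcium transport, other EF-hand proteins, other S100 genes, and markers of 11 cell types) were chosen with earlier results of these data known. Every S100 gene with a value was named, as were called genes of the lists with at least 2 uncalled ones, and the 8 genes that correlate best with S100g. In the longer lists and the marker lists, a selection of the called genes is named. Alternatives changed the pseudocount, filter, scaling, variance model, threshold, replicate block, sex covariate and libraries. The limma p-values set the difference between the groups, which also differ in age, against the spread between these mice. That spread is moderated over all genes.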

Additional observations from a re-analysis of the deposited data

How the results depend on the processing

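S100g, S100a1, S100a6, S100a10 and S100a13 were called higher under every alternative in which they were tested (18 or 19 each), and S100a11 under 15 of 18, the exceptions being 3 fits without 1 library. S100g and S100a11 are in the table through their cKO values alone, so their calls here are no independent support. S100a16 was called in 8 of 19, in 7 of them lower and in 1 higher, with a log2 change of 1.07 when libraries had the same total. The number of S100 genes called lower was accordingly 1 with a pseudocount of 1, with a filter at a mean of 5 on the scaled values, with median-of-ratios scaling and with robust limma, and 0 to 1 when 1 library was left out. The filter at 5 left 3 called higher, because S100g, S100a11 and S100a13 were then not tested. Over all genes, 9587 were called higher and 129 lower at the same total, where the median log2 change was 1.48 in place of 0.04, and 5098 and 697 at the same total without acinar markers. At an adjusted p under 0.01, 832 genes were called higher and 962 lower, and 4 S100 genes higher. S100a1 (limma adjusted p = 0.0117) and S100a11 (0.0208) were then not called.

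With the replicate number as a replicate block, 6 S100 genes were called higher and 1, S100a16, lower (adjusted p = 0.0265), with 1814 and 1711 of all genes. The deviations of same-numbered libraries from their group means correlated at 0.04, 0.13 and 0.14, not all above 0.1, so the numbers were not taken to pair the mice. The study's methods give the number of uniquely aligned reads of each library. Read counts per gene could not be recovered from the normalized values. No counting limit could therefore be given for values near 0, such as those of S100g in control libraries.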

Other observations

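Other EF-hand proteins, which share the calcium-binding fold of the S100 family, were called in both directions. Of 47 listed, 37 had values, and 12 were called higher, 5 lower and 20 not, with a median log2 change of 0.16, beside 17.1% of all genes called higher and 16.8% lower. Chp1, a regulator of sodium/proton exchangers, went from 460 ± 54.3 to 1306 ± 118 normalized counts (log2 change 1.501, limma adjusted p = 9.75e-05), and Cib1, an integrin-binding calcium sensor, from 100.4 ± 5.21 to 238 ± 35.8 (1.21, adjusted p = 3.52e-04). Rcn3, a chaperone of the secretory pathway, had a log2 change of 1.01 (adjusted p = 0.00369) and the matrix protein Sparc one of 1.08 (adjusted p = 0.0178). Mcfd2, part of the cargo receptor that carries glycoproteins out of the endoplasmic reticulum, fell from 3472 ± 170.2 to 1391 ± 307 (-1.34, adjusted p = 4.99e-04), and Nucb2, a Golgi calcium-binding protein, from 3426 ± 441 to 1617 ± 260.1 (-1.09, adjusted p = 0.00136). Calm2, 1 of the calmodulin genes, had a log2 change of 0.47 (adjusted p = 0.0140). With libraries at the same total, the median log2 change of all genes was 1.48, and that of Mcfd2 was 0.16 (adjusted p = 0.511) and that of Nucb2 0.41 (adjusted p = 0.0890).

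None of the 13 other S100 and S100-fused genes listed, among them S100b and S100a14, was among the genes analysed. Of the analysed genes nearest to S100g on the X chromosome, Txlng (log2 change 0.73, adjusted p = 0.0495), Piga (0.63, adjusted p = 0.0236) and Asb11 (0.87, adjusted p = 0.0299) were called higher, as was Ctps2, and Rbbp7, Syap1, Zrsr2 and Car5b were not. Over all genes 17.1% were called higher, and nothing about the region is read from these few genes.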
